A study of Homo sapiens with 6 samples.

Results

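Levels of 9 acute-phase and complement genes, SAA1, SAA2, SAA4, LCN2, C3, CFB, PTX3, CD14 and LBP, were compared between ENL-treated and control BT549 cells. The genes were found by their symbols, and the deposited table listed all 9 among 19923 genes. They were selected on earlier results of the same libraries, the ENL against control differences in count among them, so their differences are a description: counts past a threshold are given, but no p-value, and they support nothing. BT549 is an established human breast cancer cell line of mesenchymal appearance, which the labels list under mammary gland epithelial tissue. RNA was sequenced from 3 libraries of control BT549 cells and 3 libraries of BT549 cells treated with ENL. What ENL stands for, its dose, its time and its vehicle are not in the labels. They also leave unsaid whether each library is a separate culture, so a p-value here covers only the spread among these 6 samples, possibly a technical one. No other cell line was analysed here.

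The acute-phase response is a change in the make-up of plasma proteins during inflammation. It is driven mainly in hepatocytes by interleukin-6 through STAT3 and by interleukin-1 and TNF through NF-kB, with C/EBP factors acting beside both, and epithelial and stromal cells can run parts of it locally. Complement is a cascade of plasma proteases in which C3 is the central component and factor B, the product of CFB, supplies the protease of the alternative pathway. CD14 and the lipopolysaccharide-binding protein LBP hand bacterial lipopolysaccharide to the TLR4 receptor complex.

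Of the 9 genes, SAA1, SAA2, CD14, LCN2 and C3 were lower in ENL-treated cells in every library, and CFB was higher in every library. SAA1 was 11.6-fold lower by the group means, CD14 5.68-fold lower and LCN2 4.05-fold lower, whereas C3 was 1.36-fold lower and CFB 1.49-fold higher. PTX3 overlapped between the groups, and SAA4 and LBP were at or near 0 throughout. Enough counts for a fit were found for 7 of the 9 genes, and 5 of these lay past the adjusted p threshold of 0.05 downwards and 1 upwards. Among all 14086 genes fitted, 38.4% passed that threshold, 18.4% downwards and 20% upwards. The groups did not overlap for 6 of the 7 fitted genes, 5 lower and 1 higher, beside 54% of all fitted genes, 27.6% lower and 26.4% higher. Because this contrast helped choose the genes, nothing is read from these counts. The median log2 fold change was -2.02 over the 7 fitted genes and -0.02 over all genes fitted. SAA2 and LCN2 had enough counts for a fit mainly through the control libraries, where they were higher.

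**Figure D1:**
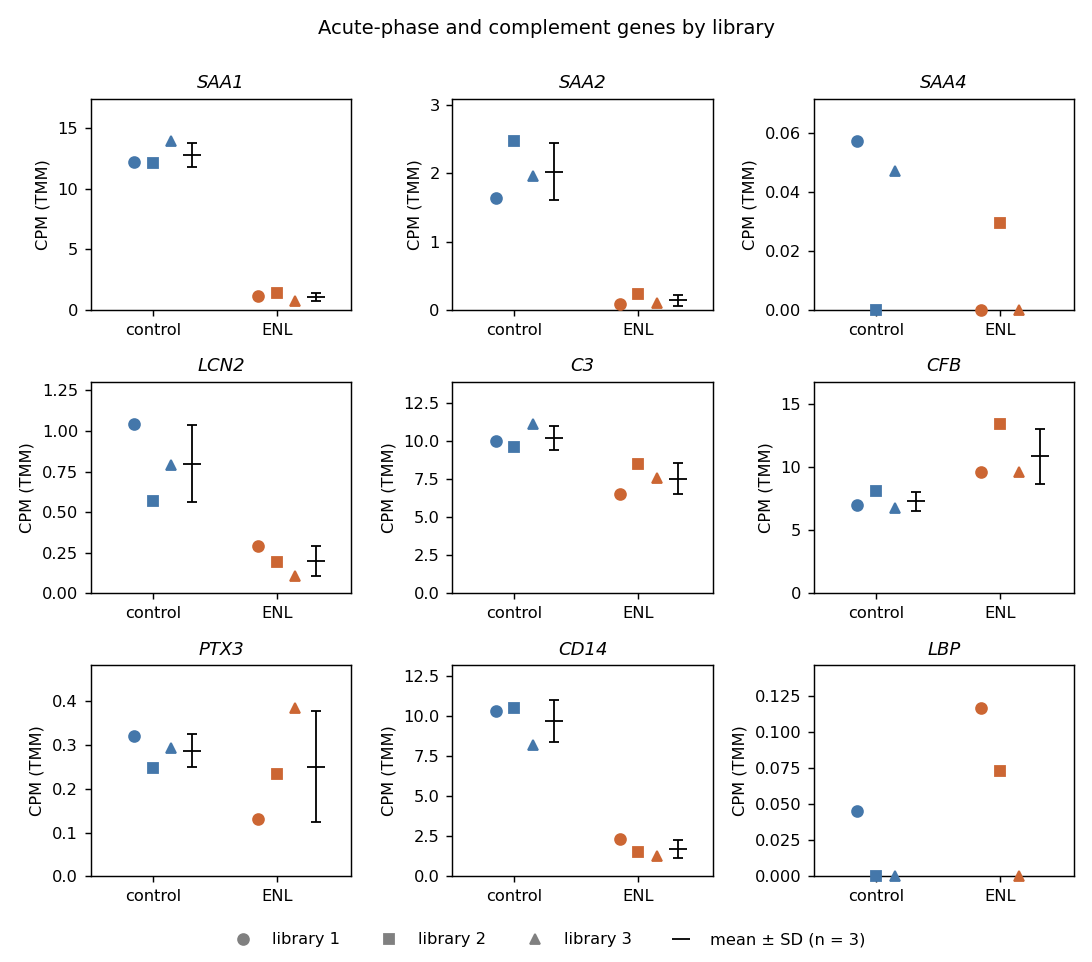
Level of each of the 9 genes in each library, in normalised CPM (linear axes starting at 0), with symbols for libraries 1, 2 and 3 and bars for the mean ± SD of 3 libraries, left out for SAA4 and LBP. SAA1 lay between 12.1 and 13.9 in control and between 0.746 and 1.41 in ENL, and CFB is the gene whose ENL libraries all lie above the control ones.

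Library totals ran from 74457932 to 85310759 units of an estimated count in which 1 sequenced fragment was worth about 4 units. Values at or below 12 units, or 3 fragments, are treated here as the floor. ENL library 3 stood apart from ENL libraries 1 and 2 on the principal component that held 12.8% of the variance, at -35.7 against 10.8 and 20.3. The mesenchymal markers summed to between 2904 and 3611 CPM in control and between 5971 and 6883 CPM in ENL, led by VIM. The 6 epithelial markers summed to between 40.8 and 59.9 CPM in control and between 58.1 and 71.0 CPM in ENL, with EPCAM too low to be fitted, and among receptor genes PGR was at 0 in all 6 libraries. Control library 2 stood apart on markers of other cell types. Its 7 neutrophil markers summed to 9.82 CPM, against 3.85 and 3.40 in control libraries 1 and 3 and 1.84 to 2.45 in ENL. Its 5 fibroblast markers summed to 35.4 CPM, against 13.0 and 12.6 in the other control libraries and 10.8 to 11.6 in ENL. Without control library 2, the log2 fold changes were -3.57 for SAA1, -3.68 for SAA2, -2.44 for CD14, -2.21 for LCN2, -0.48 for C3 and 0.66 for CFB. Without ENL library 3 they were -3.30, -3.62, -2.31, -1.70, -0.43 and 0.67 in the same order.

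The serum amyloid A genes lie together on chromosome 11 (GRCh38, GENCODE 29). SAA1 spans 18266174 to 18269977 on the plus strand, SAA2 18239223 to 18248643 and SAA4 18231349 to 18236893, both on the minus strand. SAA1 and SAA2 encode the acute-phase forms, which travel with high-density lipoprotein, and SAA4 encodes the constitutive form. The SAA1 and SAA2 coding sequences are shown because their closeness bears on how reads were divided between these genes. The lines give the first 300 of 366 coding bases of the GENCODE 29 transcripts SAA1-201 and SAA2-201, 5′ to 3′, with the bases that differ in capitals.
SAA1: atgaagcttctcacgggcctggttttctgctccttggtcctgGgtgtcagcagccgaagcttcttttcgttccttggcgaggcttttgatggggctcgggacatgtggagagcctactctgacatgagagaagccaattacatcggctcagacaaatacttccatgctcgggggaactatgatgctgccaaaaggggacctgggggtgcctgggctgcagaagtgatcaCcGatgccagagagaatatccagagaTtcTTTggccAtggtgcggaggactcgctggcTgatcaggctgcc
SAA2: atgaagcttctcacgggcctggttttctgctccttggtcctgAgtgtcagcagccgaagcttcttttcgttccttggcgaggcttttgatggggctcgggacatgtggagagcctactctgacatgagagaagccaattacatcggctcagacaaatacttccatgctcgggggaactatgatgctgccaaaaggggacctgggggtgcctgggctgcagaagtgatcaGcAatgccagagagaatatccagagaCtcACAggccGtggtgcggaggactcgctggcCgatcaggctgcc
The full coding sequences differed at 11 of 366 bases (97.0% identity), 9 of them in the stretch shown, and the longest identical run was 186 bases. Of all stretches of 75 bases in the SAA1-201 transcript, 118 of 541 (21.8%) also occurred in at least 1 GENCODE 29 transcript of SAA2. Of those in the SAA2-201 transcript, 118 of 489 (24.1%) also occurred in at least 1 GENCODE 29 transcript of SAA1. The length of 75 bases was set for this search. A read within a shared stretch could come from either gene, so the split of such reads is uncertain. SAA2 and SAA4 further share exon bases with the readthrough gene SAA2-SAA4, 267 and 476 bases respectively.

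SAA1 stood at 12.2, 12.1 and 13.9 CPM in control libraries 1, 2 and 3 and at 1.14, 1.41 and 0.746 CPM in ENL libraries 1, 2 and 3. CPM is scaled between libraries by TMM. The control libraries lay close together, and every ENL library lay far below the lowest control library. The means were 12.7 ± 1.01 CPM in control and 1.10 ± 0.333 CPM in ENL (SD, n = 3 each), and the fitted log2 fold change was -3.54 ± 0.25 (SE). In absolute size this fold change lay at the 99.2 percentile of all fitted genes. Because this contrast helped choose SAA1, nothing is read from that rank. Leaving out single libraries moved it between -3.75 and -3.30. SAA1 rested on a mean of 269 fragments in control and 19.7 in ENL.

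SAA2 was the scarcer gene, at 1.64, 2.47 and 1.96 CPM in control and 0.0879, 0.235 and 0.0963 CPM in ENL. The groups did not overlap, and ENL libraries 1 and 3 were below the floor, with 6 and 8 units. The fitted log2 fold change was -3.85 ± 0.47 (SE, n = 3 per group) and ran from -4.43 to -3.61 with single libraries left out. The mean in ENL was 2.5 fragments a library, so the size of the SAA2 difference is poorly fixed.

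Because reads may pass between the 2 genes, their counts were also summed. The sum was 1212, 1181 and 1349 units in control and 84, 112 and 70 units in ENL, again without overlap. Its log2 fold change was -3.58 ± 0.26 (SE, n = 3 per group). SAA2 made up 11.8%, 16.9% and 12.4% of the sum in control and 7.14%, 14.3% and 11.4% in ENL, and these shares overlapped between the groups. SAA4 had 5, 0 and 4 units in control and 0, 2 and 0 units in ENL, and the SAA2-SAA4 readthrough gene 3, 0 and 4 against 0, 2 and 0 units. All of these were at or below the floor, so no fold is given for SAA4. Adding both to the sum left the log2 fold change at -3.56.

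CD14 encodes the co-receptor that presents lipopolysaccharide to TLR4, known best from monocytes and macrophages. The gene lies on chromosome 5 from 140631728 to 140633701 on the minus strand. CD14 stood at 10.3, 10.5 and 8.18 CPM in control and at 2.34, 1.51 and 1.26 CPM in ENL. All 3 ENL libraries lay below all 3 control libraries, with control library 3 the lowest of its group. The means were 9.68 ± 1.31 and 1.71 ± 0.565 CPM (SD, n = 3 each), with a log2 fold change of -2.51 ± 0.26 (SE) and a range of -2.80 to -2.31 with single libraries left out. The 7 monocyte and macrophage markers summed to 2.01, 4.06 and 1.89 CPM in control and to between 0.879 and 1.26 CPM in ENL. Of these, 5 were fitted. CSF1R was lower (log2 fold change -3.19), at 0, 0.0587 and 0.0722 CPM in ENL, all below the floor. PTPRC, CD163, LYZ and FCER1G overlapped between the groups and did not pass the threshold. AIF1 and TYROBP were not fitted, and TYROBP was at 0 in all 6 libraries. The part of such cells in the CD14 difference was not tested, and fewer cells of a type and less RNA per cell cannot be told apart in bulk libraries.

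LBP, the plasma protein that loads lipopolysaccharide onto CD14, lies on chromosome 20 from 38346356 to 38377023 on the plus strand. It had 4, 0 and 0 units in control and 8, 5 and 0 units in ENL, all at or below the floor, so it was not fitted and no fold is given.

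LCN2 encodes lipocalin-2, a secreted protein that binds bacterial siderophores and keeps iron from bacteria, and lies on chromosome 9 from 128149071 to 128153455 on the plus strand. LCN2 stood at 1.04, 0.568 and 0.788 CPM in control and at 0.293, 0.191 and 0.108 CPM in ENL. The groups did not overlap, although the highest ENL library and the lowest control library were closer than for SAA1 or CD14. The means were 0.799 ± 0.237 and 0.197 ± 0.0924 CPM (SD, n = 3 each), and the log2 fold change was -2.02 ± 0.53 (SE). With single libraries left out it ran from -2.41 to -1.70, and LCN2 no longer lay past the threshold without control library 1, control library 3 or ENL library 2. In fragments, LCN2 averaged 17 in control and 3.5 in ENL. LCN2 is abundant in neutrophils. Of the 7 neutrophil markers, 3 were fitted, and S100A8 alone passed the threshold (log2 fold change -2.41). S100A8 stood at 0.709, 2.59 and 0.765 CPM in control and at 0.205, 0.455 and 0.108 CPM in ENL. Control library 2 was the highest for S100A8 and the lowest control library for LCN2. S100A9 and ELANE did not pass. The part of such cells in the LCN2 difference was not tested.

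PTX3 encodes the long pentraxin, a soluble pattern-recognition protein made locally in tissues, and lies on chromosome 3 from 157436789 to 157443628 on the plus strand. It stood at 0.320, 0.247 and 0.294 CPM in control and at 0.132, 0.235 and 0.385 CPM in ENL. The groups overlapped, with ENL library 3 the highest and ENL library 1 the lowest of the 6. The log2 fold change was -0.19 ± 0.56 (SE, n = 3 per group), and it turned to 0.12 when ENL library 1 was left out. PTX3 averaged 6.08 fragments in control and 4.75 in ENL.

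C3, the central complement component, lies on chromosome 19 from 6677704 to 6730562 on the minus strand. It stood at 10.02, 9.60 and 11.1 CPM in control and at 6.53, 8.53 and 7.60 CPM in ENL. The groups did not overlap, but the gap between ENL library 2 and control library 2 was small. The means were 10.2 ± 0.784 and 7.55 ± 0.999 CPM (SD, n = 3 each), with a log2 fold change of -0.44 ± 0.14 (SE). C3 lay just past the threshold, and no longer did so without control library 1, 2 or 3, without ENL library 1 or 3, or with median-of-ratios scaling, no filter on low counts or the replicate number as a block. Its fold change ran from -0.53 to -0.34 with single libraries left out.

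CFB was the only one of the 9 genes that was higher in ENL in all libraries. It lies on chromosome 6 from 31945650 to 31952084 on the plus strand, next to the complement gene C2. CFB stood at 6.96, 8.12 and 6.74 CPM in control and at 9.58, 13.4 and 9.60 CPM in ENL, with ENL library 2 above the rest. The means were 7.27 ± 0.740 and 10.8 ± 2.19 CPM (SD, n = 3 each), and the log2 fold change was 0.58 ± 0.18 (SE). Leaving out single libraries moved it between 0.40 and 0.67, and it was 0.37 when libraries were scaled by their totals. CFB no longer lay past the threshold with upper-quartile scaling or library totals, or without control library 1, 2 or 3 or ENL library 2. It shares 2249 of its annotated exon bases (45.0%) with the readthrough gene AL645922.1. The ratio of CFB to C3 counts, which needs no scaling between libraries, was 0.695, 0.846 and 0.606 in control and 1.47, 1.57 and 1.26 in ENL. The ratio was below 1 in all control libraries and above 1 in all ENL libraries. Counts also scale with transcript length, and per length CFB lay above C3 in both groups, at 2.54 against 1.95 CPM per kb in control and 3.79 against 1.43 CPM per kb in ENL, so their order of levels was the same in both.

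**Figure D2:**
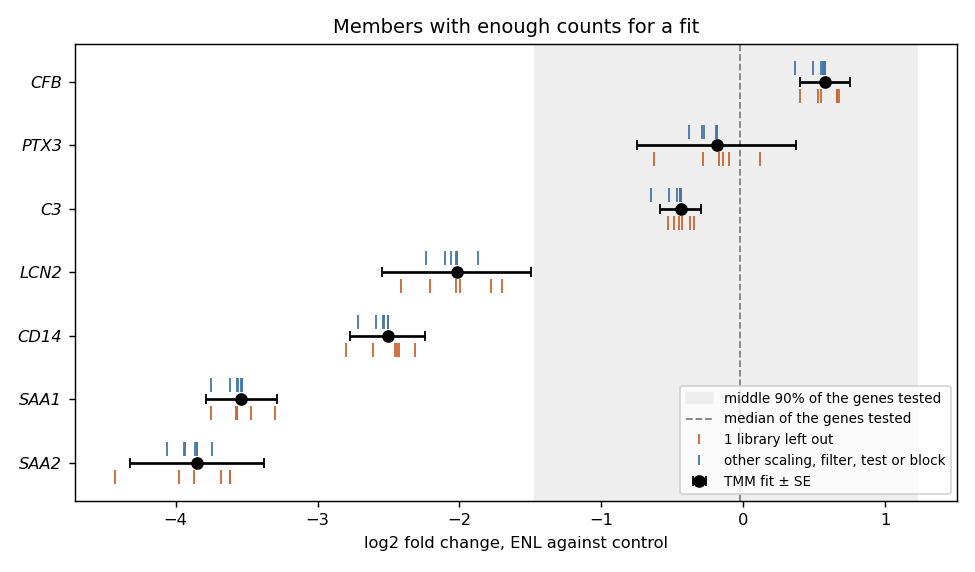
Log2 fold change of ENL against control for the 7 fitted genes: black points with bars give the fit ± SE (3 libraries per group), and ticks give single libraries left out and other scalings, filters, tests or the block. The grey band holds the middle 90% of all fitted genes. SAA2 at -3.85 and SAA1 at -3.54 lie to its left, but this contrast helped choose them, so nothing is read from that. Only PTX3 has ticks on both sides of 0.

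Stretches before the start sites of LCN2, CD14 and CFB are shown because these genes differed in size or direction and their windows held letters of the consensus motifs of factors described further on. RefSeq start sites (GRCh38.p14) were found for SAA4, LCN2, CFB, PTX3 and CD14, 5 of the 9 genes. The sequences are from RefSeq, 5′ to 3′ on the strand of the gene, with motif matches in capitals. LCN2 is at chr9:128149265-128149440 on the plus strand and lies outside annotated exons, CD14 at chr5:140633279-140633308 on the minus strand and CFB at chr6:31945983-31946012 on the plus strand, both within exons annotated for other transcripts.
LCN2: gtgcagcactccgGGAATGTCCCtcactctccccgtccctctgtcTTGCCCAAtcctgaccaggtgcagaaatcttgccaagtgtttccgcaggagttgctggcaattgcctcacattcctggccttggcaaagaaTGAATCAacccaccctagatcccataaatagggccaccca
CD14: attgcaatatTTCCAGGAAaggaagggggc
CFB: GGGGCCCTCCcgcttggatgTTCCGGGAAa
In LCN2 the capitals mark, in order, a kappa-B consensus match on the minus strand, a C/EBP match on the minus strand (TTNNGNAA) and an AP-1 match (TGANTCA). In CD14 they mark a STAT match (TTCNNNGAA), and in CFB a kappa-B match and a STAT match. Searching both strands of the 250 bases before each start, a kappa-B match was found in 9.96% of 35116 RefSeq promoters, a C/EBP match in 33.2%, a STAT match in 6.57% and an AP-1 match in 6.57%. PTX3 held kappa-B and C/EBP matches, SAA4 held 6 C/EBP matches, and CD14 also held a C/EBP and an AP-1 match outside the stretch shown. No match overlapped a match of another motif. A match is only a run of letters, and binding was not measured.

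Levels of different genes were compared as mean CPM per kb of the longest coding transcript. For SAA2 this was 1022 bases long. The SAA2 transcript whose coding bases are shown above is shorter, with 489 stretches of 75 bases, and a shorter length raises the level per kb. The place of SAA2 in the orders below, and its overlaps with neighbours, therefore depend on the transcript chosen. Levels with other transcript lengths were not computed. In control cells the order was SAA1 at 18.9, CD14 at 5.13, CFB at 2.54, SAA2 at 1.98, C3 at 1.95, LCN2 at 0.942 and PTX3 at 0.148 CPM per kb. The ranges over 3 libraries overlapped for CFB with SAA2 and for SAA2 with C3. SAA1 lay at the 76.8 percentile of fitted genes and PTX3 at the 7.45 percentile. In ENL-treated cells the order was CFB at 3.79, SAA1 at 1.63, C3 at 1.43, CD14 at 0.905, LCN2 at 0.233, SAA2 at 0.137 and PTX3 at 0.129 CPM per kb. There the ranges overlapped for each neighbouring pair except CFB with SAA1 and CD14 with LCN2. SAA1 led the 7 genes in control cells and CFB led them in ENL-treated cells, where SAA1 lay at the 27.9 percentile. Between libraries, the coefficient of variation of SAA1 was 7.90% in control and 30.3% in ENL. The median over fitted genes was 8.77% in control and 14.2% in ENL. SAA1 averaged 269 fragments in control and 19.7 in ENL, and counting noise is larger at few fragments. The 30.3% is therefore not read as a change in spread.

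**Figure D3:**
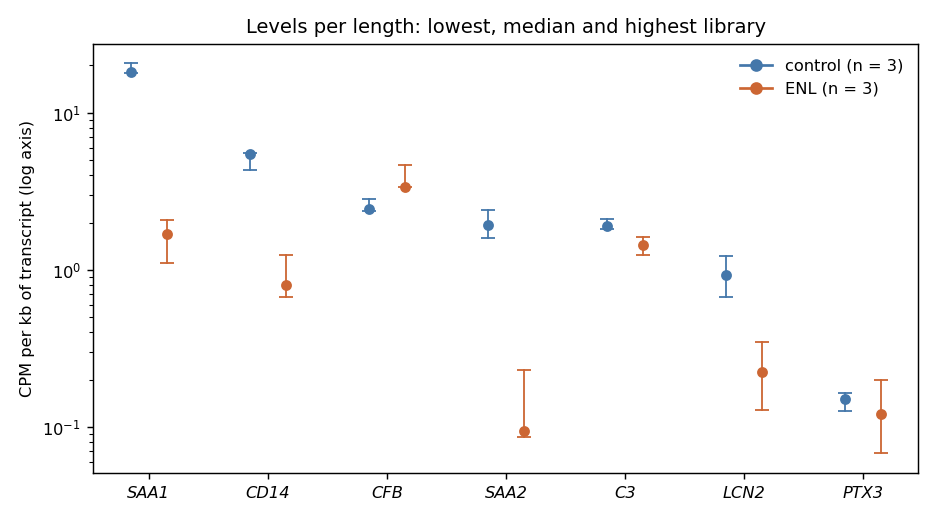
Level per length of the 7 fitted genes (CPM per kb of transcript, log axis), with the lowest, median and highest of 3 libraries in control and in ENL. SAA1 has the highest mean in control at 18.9 and CFB in ENL at 3.79, while the PTX3 ranges overlap between the groups.

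Genes around the acute-phase pathway were counted in lists, of which 94 of 140 genes in the table were fitted; 24 rose (25.5%) and 12 fell (12.8%) by edgeR's adjusted p, with a median log2 fold change of 0.0088. Over all 14086 genes fitted 20% were higher and 18.4% lower, with a median of -0.02, and the lists that follow are set beside these shares. The inducing cytokines and their receptors had 12 fitted genes, of which 2 rose and 2 fell (16.7% each), with a median of 0.09. IL6, the main inducer of hepatic acute-phase genes, rose from 46.2 ± 3.05 to 97.5 ± 7.62 CPM (log2 fold change 1.08 ± 0.10, adjusted p = 0.000333). LIF, a cytokine of the same family, rose by a log2 fold change of 0.89 ± 0.07 (adjusted p = 0.000254). IL1B, which encodes interleukin-1 beta, fell from 3.29, 8.45 and 3.20 CPM to 1.36, 1.79 and 1.02 CPM (log2 fold change -1.84 ± 0.45, adjusted p = 0.0183). Control library 2 was high for IL1B, and its fold change was -1.22 (adjusted p = 0.0293) without that library. The IL1B call was lost without ENL library 1 (adjusted p = 0.0603) or ENL library 3 (adjusted p = 0.0632). The oncostatin M receptor gene OSMR fell by 0.40 ± 0.08 on the log2 scale (adjusted p = 0.00874). IL6ST, the shared receptor subunit gp130, stood at a log2 fold change of -0.17 ± 0.13 (adjusted p = 0.345), and at -0.30 (adjusted p = 0.0217) without ENL library 3.

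In JAK-STAT3 signalling, 4 of 9 genes rose (44.4%) and 2 fell (22.2%), with a median log2 fold change of 0.34. SOCS1 and SOCS3 encode feedback inhibitors of cytokine receptors. SOCS1 rose from 0.913 to 8.97 CPM (log2 fold change 3.29 ± 0.27, adjusted p = 0.000257) and SOCS3 from 20.4 to 33.0 CPM (0.69 ± 0.10, adjusted p = 0.00252). STAT3, the factor downstream of interleukin-6, rose by 0.61 ± 0.09 (adjusted p = 0.00217). PIAS3, an inhibitor of STAT3, fell by 0.44 ± 0.08 on the log2 scale (adjusted p = 0.00475), with an overlap of 432 exon bases with NUDT17 on the opposite strand. PTPN11, a phosphatase gene, fell by 0.48 ± 0.14 (adjusted p = 0.0313), a call lost without control library 1, 2 or 3 or ENL library 1 or 2 (adjusted p up to 0.101).

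Of 18 NF-kB and C/EBP factors and regulators, all fitted, 11 rose (61.1%) and 2 fell (11.1%), and the median log2 fold change was 0.84. The C/EBP factor gene CEBPA rose from 6.46 to 37.0 CPM (log2 fold change 2.52 ± 0.15, adjusted p = 7.58e-05). CEBPB rose from 260 to 842 CPM (1.70 ± 0.13, adjusted p = 0.000195) and CEBPD from 433 to 854 CPM (0.98 ± 0.13, adjusted p = 0.00152). BCL3, a nuclear partner of NF-kB p50 and p52, rose by 1.51 ± 0.10 (adjusted p = 8.98e-05), and NFKB2, the p52 precursor gene, by 1.20 ± 0.09 (adjusted p = 0.000154). NFKB1, the p50 precursor gene, fell by 0.47 ± 0.10 on the log2 scale (adjusted p = 0.00943). CHUK, an IkB kinase gene, fell by 0.91 ± 0.24 (adjusted p = 0.0253), and its call was lost with the replicate block (adjusted p = 0.0546) and without control library 1 or 3 or ENL library 2 or 3 (adjusted p up to 0.079). The fold change of RELA, the p65 gene, was on the log2 scale 0.16 ± 0.21 (adjusted p = 0.595) and turned to -0.04 under library totals and to -0.10 without ENL library 3. CEBPA, CEBPB, IL6, IL6ST and LIF have annotated antisense neighbours that share exon bases with them. OSMR shares 229 exon bases with RICTOR and PTPN11 shares 111 with RPL6, both on the opposite strand. The sources used here do not say if the counting used strand.

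Of 17 other acute-phase plasma protein genes, 10 were fitted, 0 rose (0 by DESeq2 and 0 at an unadjusted edgeR p under 0.05) and 1 fell (10%), with a median log2 fold change of -0.37. The gene that fell was SERPINA3, which encodes the protease inhibitor antichymotrypsin, from 107 to 75.2 CPM (-0.50 ± 0.14, adjusted p = 0.0302). Its call was lost without control library 1, 2 or 3 or ENL library 1 or 3 (adjusted p up to 0.0955), and it shares 1592 exon bases with AL049839.2. The other fitted genes of this list had group means from 0.0803 to 1.21 CPM, so the list median rests on low counts. The hepatocyte markers summed to at most 0.732 CPM in control and 1.19 CPM in ENL, with APOB, AHSG and TTR at 0 in all libraries.

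Of 26 further complement components, 12 were fitted. By edgeR 0 rose, with 1 at an unadjusted p under 0.05 and 1 called by DESeq2, and 3 fell (25%), and the median log2 fold change was 0.15. With single libraries left out, 0 to 1 rose and 1 to 2 fell, 1 rising without control library 2. C1RL, a relative of the C1r protease, fell from 21.0 to 11.4 CPM (-0.88 ± 0.11, adjusted p = 0.00111) and shares 672 exon bases with C1R. MASP2, a protease of the lectin pathway, fell from 3.31 to 1.10 CPM (-1.59 ± 0.41, adjusted p = 0.0213), a call lost without control library 1 or 3 or ENL library 1 or 2 (adjusted p up to 0.0608). CFP encodes properdin, which stabilises the C3 convertase that C3 and factor B form, and fell by 0.70 ± 0.20 on the log2 scale (adjusted p = 0.0315). The CFP call was lost with the replicate block (adjusted p = 0.0625) and without any single library other than control library 3 (adjusted p up to 0.0996). C1R and C1S, the proteases of the classical pathway, had log2 fold changes of 0.25 ± 0.20 (adjusted p = 0.356) and 0.29 ± 0.31 (adjusted p = 0.492). C1S shares 229 exon bases with EMG1 on the same strand.

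Among complement regulators, 6 of 14 were fitted, 2 rose (33.3%) and 1 fell (16.7%), with a median log2 fold change of 0.18. CLU, the gene of the fluid-phase inhibitor clusterin, rose from 272 to 563 CPM (1.05 ± 0.12, adjusted p = 0.000779). CD55, which speeds the decay of C3 convertases, rose from 40.3 to 57.7 CPM (0.52 ± 0.10, adjusted p = 0.00844), a call lost under library totals (adjusted p = 0.0778). CD59, which blocks the membrane attack complex, fell from 130 to 89.6 CPM (-0.54 ± 0.14, adjusted p = 0.0205), a call lost without control library 1 or 3 or ENL library 1 or 2 (adjusted p up to 0.0681). CD59 shares 629 exon bases with AL049629.2. Of 8 complement receptor genes, 5 were fitted and 0 passed by edgeR or DESeq2, with 0 at an unadjusted p under 0.05 and a median log2 fold change of -0.62. Without control library 2, 1 was higher by edgeR. C3AR1, CR2, ITGAM and ITGB2 had group means from 0.0978 to 0.437 CPM, beside a floor of 0.137 to 0.176 CPM. C5AR1 stood at 2.93 CPM in control and 2.88 CPM in ENL. The median of the receptor list therefore rests on few fragments.

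In lipopolysaccharide sensing, 10 of 13 genes in the table were fitted, 3 rose (30%) and 1 fell (10%), with a median log2 fold change of -0.66. The count that fell was 3 under library totals or without ENL library 3, 2 with the replicate block and 0 without control library 3. TLR4, the receptor that CD14 serves, had 0, 0.395 and 0.106 CPM in control and 0 in the 3 ENL libraries, and its partner LY96 was at 0 in all 6 libraries. TLR2, which also takes ligands from CD14, fell from 1.22 to 0.420 CPM (-1.53 ± 0.37, adjusted p = 0.016), a call lost without control library 3 (adjusted p = 0.0748). IRAK2, a kinase downstream of these receptors, rose from 27.2 to 81.8 CPM (1.59 ± 0.09, adjusted p = 7.28e-05). The adaptor gene TICAM1 rose by 0.54 ± 0.11 (adjusted p = 0.00944). TRAF6, a ubiquitin ligase gene, rose by 0.46 ± 0.12 (adjusted p = 0.0236), and its call was lost under library totals (adjusted p = 0.152), with the replicate block (adjusted p = 0.0569) and without control library 1 or 3 or ENL library 1 (adjusted p up to 0.0911).

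Receptors and partners of the SAA, LCN2 and PTX3 proteins had 7 of 10 genes fitted. By edgeR 0 passed in either direction, 1 had an unadjusted p under 0.05, upwards, and 1 was called higher by DESeq2, with the replicate block and without control library 2; the median log2 fold change was 0.03. Of 10 structural relatives of the proteins, 5 were fitted, 2 rose (40%) and 0 fell (0 by DESeq2 and 0 at an unadjusted edgeR p under 0.05), with a median of -0.07. NPTX1, a neuronal pentraxin related to PTX3, rose from 15.3 ± 0.752 to 206 ± 23.5 CPM (3.75 ± 0.11, adjusted p = 1.17e-05). PLTP, a phospholipid transfer protein of the LBP family, rose by 0.44 ± 0.08 (adjusted p = 0.00499), and it shares 200 exon bases with CTSA on the opposite strand.

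**Figure D4:**
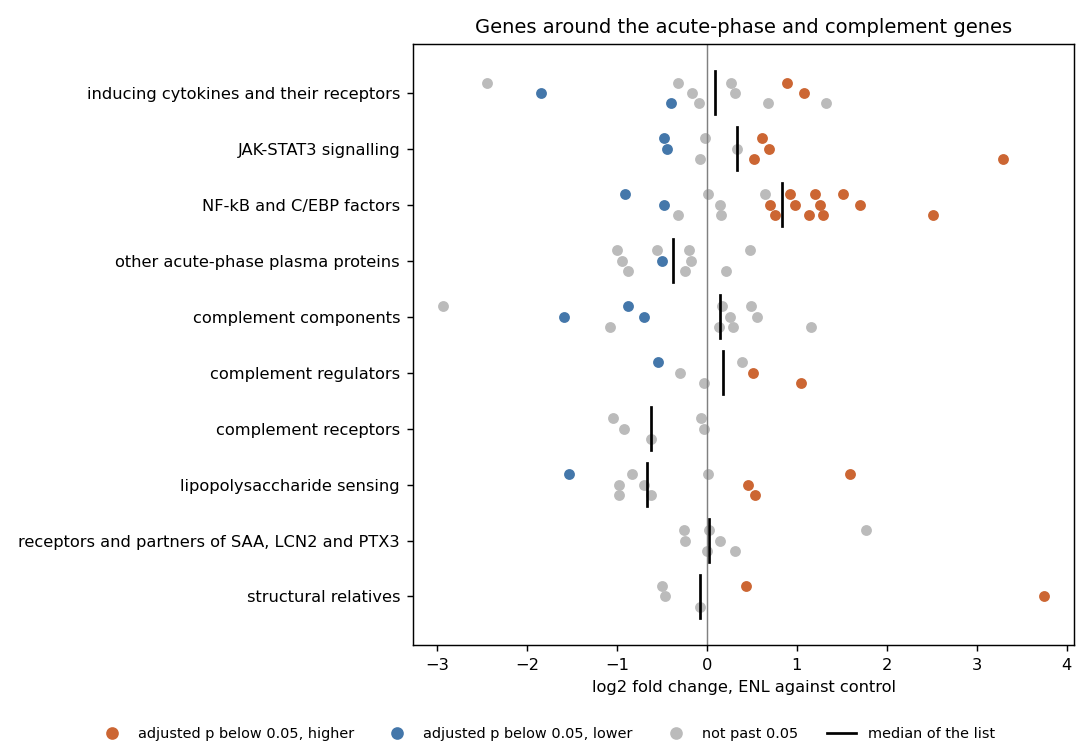
Log2 fold change of ENL against control for each fitted gene of the 10 lists, coloured by edgeR's adjusted p, with a black bar at the median of each list. The NF-kB and C/EBP factors have their median at 0.84, NPTX1 lies at 3.75 among the structural relatives, and no complement receptor passed in this fit.

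The genes nearest to each better-measured member were found by the root mean square difference of log2 CPM, centred per gene, over the 6 libraries. Nearest to SAA1 were PLEKHG6 at 0.194, MYLK2 at 0.213 and LGALS2 at 0.262, all lower in ENL. Their ENL means were 0.140, 0.276 and 0.00979 CPM, beside a floor of 0.144 to 0.176 CPM in the ENL libraries. These distances therefore rest on few fragments. Nearest to CD14 were MSLNL at 0.135, CYP2E1 at 0.180 and APLN at 0.185. Nearest to C3 were SUGP2 at 0.0420, TNFRSF10A at 0.0421 and IL31RA at 0.0487, and nearest to CFB were APOBEC3F at 0.0505, NDUFS7 at 0.0533 and RASA4B at 0.0774. Genes with small differences between the groups had smaller distances than genes with large ones.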

How the data were processed

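RNA sequencing of 3 control and 3 ENL-treated BT549 libraries was analysed, grouped by the treatment label. Per the submitters' processing notes, FastQC, STAR, StringTie, DESeq2 and the build hg38 were used, with no versions or roles; annotation and strandedness are not named in the sources used here. The authors deposited estimated counts per gene, in whole numbers. Of values from 4 to 43, 70.8% to 73.1% lay at a multiple of 4 or 1 above, so 1 fragment was worth about 4 units.

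After filterByExpr (minimum count 10) and TMM scaling, edgeR's quasi-likelihood test (glmQLFTest, two-sided, robust fit, group alone) was run with Benjamini-Hochberg adjustment over 14086 genes and a threshold of 0.05. The SE is the log2 fold change divided by the square root of F. R 4.3.3, edgeR 4.0.16 and DESeq2 1.42.0 were used. The procedure was tested on simulated counts with the same dispersion for all genes and few changed genes, a simpler setting than these data. Replicates of a group differed beyond sampling noise (chi-square per degree of freedom 69.7 to 178). This chi-square was taken on units, about 4 to a fragment, which raises it by about that factor.

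The genes and lists were chosen with earlier results of these data known. Named are all 9 genes, up to 3 genes per direction and list with the smallest adjusted p past the threshold, IL6, IL1B, IL6ST, STAT3, NFKB1, RELA, CEBPB, CEBPD, TLR4, CD55, CD59, C1R, C1S and SERPINA3, and for each of the 9 with at least 5 CPM in its higher group the 3 nearest genes, with a pseudocount of 1 fragment. LY96 and the marker genes named were chosen after their values were seen. IRAK4 was not analysed here, and 1 complement regulator gene is not reported here. Lengths were found for 13849 of 14086 genes (98.3%). Positions count from 1. Alternatives were 3 other scalings, the DESeq2 Wald test, 2 filters, counts divided by 4, the replicate block and each library left out.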

Additional observations from a re-analysis of the deposited data

How the results depend on the processing

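With libraries scaled by TMM all genes had a median log2 fold change of -0.02, with 2819 genes higher and 2585 lower (52.2% of calls higher); it was -0.11 under upper-quartile scaling (42.9% higher) and -0.23 under library totals, which gave 1804 higher and 3996 lower (31.1% higher). Among the 9 genes, the count higher was 0 under both of these scalings, where CFB missed the threshold, and the count lower was 3 when 5 CPM in 3 libraries was required, where SAA2, LCN2 and PTX3 were not fitted. With single libraries left out, genes higher ran from 2072 to 3156 and lower from 1743 to 2877, the 9 genes gave 3 to 4 lower and 0 to 1 higher, and the lists gave 21 to 26 higher and 6 to 14 lower; 2 libraries in a group leave fewer degrees of freedom. The log2 fold change of SAA1 and SAA2 summed ran from -3.83 to -3.34. RELA reversed to -0.040 under library totals and ran from -0.10 (without ENL library 3) to 0.35 with single libraries left out; the cause was not tested. Of the 458 comparisons of 33 list genes with an alternative, 417 kept direction and side of the threshold, 38 lost the call and 1 gained it. Counts of a few fragments limit SAA2, LCN2 and PTX3.

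Same-numbered control and ENL libraries had correlations of deviations of 0.0355, 0.111 and 0.107, and the other pairs ran from -0.128 to 0.0284. Each control library correlated best with the ENL library of its own number. The same-numbered values were not all above 0.1, and the main fit left pairing out. That mark is not a test of pairing, so whether the numbers pair the libraries was not settled. With the replicate number as a block, 2631 genes were higher and 2310 lower, and the 9 genes gave 4 lower and 1 higher.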
